A study of Mus musculus with 20 samples.

Results

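Whether orchiectomy and intermittent hypoxia added up in the mouse liver, or departed from additivity, was examined by a single contrast of gene expression: the effect of intermittent hypoxia in orchiectomized mice minus its effect in sham-operated mice. The contrast rests on 17 of the 20 liver libraries of the series. All mice were male. Sham-operated mice kept their testes, and orchiectomized mice (ORX) had them removed. Each kind was housed for 2 weeks either in normoxia (Nx) or under intermittent hypoxia (IH), the repeated falls in oxygen used to model sleep apnoea. The libraries of the contrast were Sham_Nx (n = 4, mice 2 to 5), Sham_IH (n = 5), ORX_Nx (n = 5) and ORX_IH (n = 3, mice 3 to 5). ORX_IH 1 and ORX_IH 2 were left out for skeletal muscle RNA, and Sham_Nx 1 was not analysed here. The labels give neither strain nor age. Each library was one labelled mouse, and poly(A)-selected RNA of frozen liver was sequenced.

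The testes supply most of the testosterone of a male mouse, and in rodents androgens act on the liver largely through the male, pulsatile pattern of growth hormone release, which STAT5 reads out in hepatocytes. Loss of that pattern lowers male-biased liver genes and raises female-biased ones. Repeated hypoxia bears on hepatic lipid and sterol metabolism and on oxygen-regulated genes. The flavin-containing monooxygenases, after which the series is titled, oxidize nitrogen and sulfur atoms of drugs and dietary amines. By its title, the series is concerned with synergy between androgen loss and intermittent hypoxia in this family, which is a question about the contrast.

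Additivity has a different meaning on each scale. On the log2 scale it means that the fold changes of both treatments multiply, and the departure from it is called the log2 interaction. On the linear scale it means that the changes in amount, in CPM (counts scaled to a common library size), add up, and the departure from it is called the linear departure. A positive value on either scale means that the level in ORX_IH was above the one that the other 3 groups give by that rule. A gene that orchiectomy lowers strongly can gain many-fold from a low base, and so be above the fold-change expectation, while the amount gained stays small.

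The used libraries held from 29.3 M to 69.6 M estimated counts, so that 3 counts in the shallowest corresponded to 0.102 CPM, which covers counting error only. Every library was rich in hepatocyte transcripts: the 12 hepatocyte genes examined summed to 94862 CPM or more in each. The male-biased list summed to between 21844 and 54943 CPM in sham-operated and between 2671 and 7743 CPM in orchiectomized livers of the contrast, without overlap. Skeletal muscle genes summed to 270.4 CPM in Sham_Nx 2 and 73.5 CPM in Sham_Nx 3, against 18.8 to 57.9 CPM in the other 15 used libraries and 1567 and 934 CPM in the pair left out. ORX_Nx 4 and ORX_Nx 5 were the highest of the used libraries in acute phase genes (38112 and 29826 CPM, against at most 26059 in the others) and in Kupffer cell markers. Exocrine pancreas genes summed to 647 CPM in Sham_Nx 5 and 1571 CPM in Sham_IH 5, and to at most 30.5 CPM in the other used libraries.

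**Figure D1:**
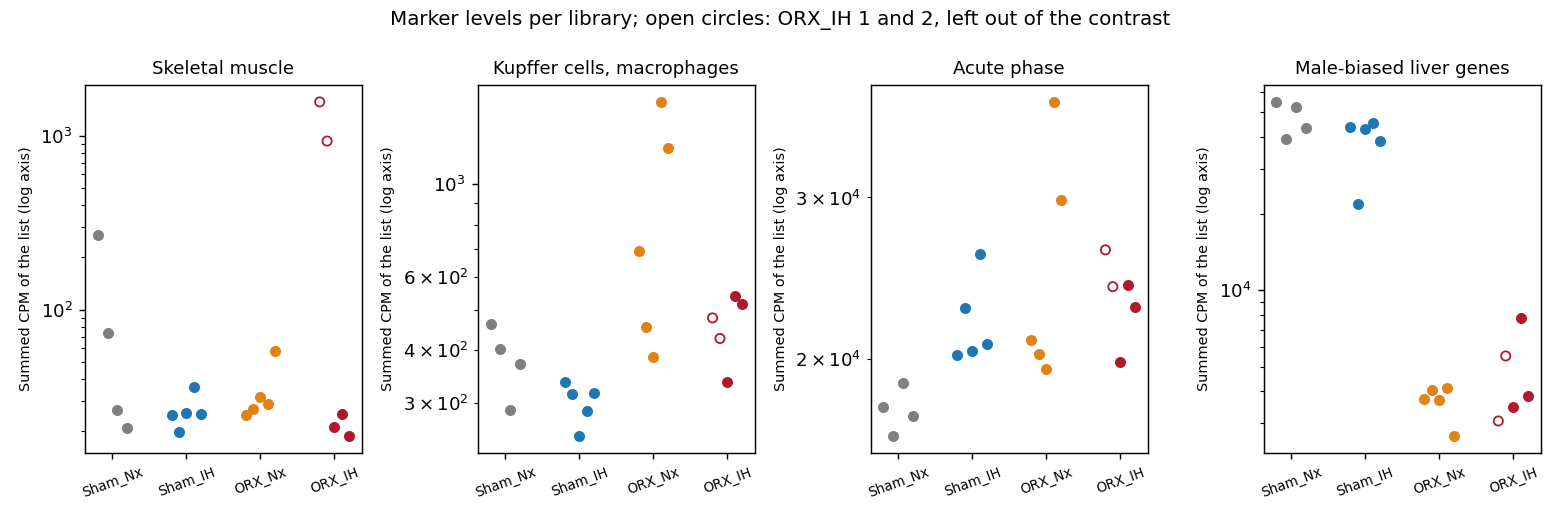
Summed CPM of 4 gene lists in each library (log axes), by group; filled circles are the 17 libraries of the contrast and open circles ORX_IH 1 and ORX_IH 2. Sham_Nx 2 stands at 270 CPM and the open circles at 1567 and 934 CPM of muscle genes, while ORX_Nx 4 and ORX_Nx 5 stand highest in Kupffer cell and acute phase genes among the filled circles.

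No gene passed the test for a departure from additivity on either scale. Of 16276 genes tested, 0 (0%) were called on the log2 scale by edgeR's quasi-likelihood test and 0 (0%) on the linear scale, at a Benjamini-Hochberg (BH) adjusted p under 0.05, so 0 were called on both. The smallest BH-adjusted p of edgeR was 0.237 on the log2 scale, followed by 0.834, and 0.322 on the linear scale, followed by 0.756. Both smallest values belonged to Slc6a9, a glycine transporter. Unadjusted p-values under 0.05 were found for 946 genes (5.81%) on the log2 scale, 431 positive and 515 negative, and for 1043 genes (6.41%) on the linear scale, 374 positive and 669 negative. With nothing departing, a threshold of 0.05 passes 5% of genes. The other tools called few genes: limma-voom 0 on the log2 scale, limma on the authors' normalized log2 values 0, DESeq2 6, and limma on scaled CPM 1 on the linear scale.

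The libraries set limits on the size of an undetected departure, and these differed with abundance. The 95% interval of the log2 interaction lay within −1 and 1 for 10511 genes (64.6%), which excludes a departure of 2-fold or more for each of these taken singly. Among the 7913 genes with a mean of at least 10 CPM this held for 93.6%, with a median half-width of 0.27. Among the 3989 genes under 1 CPM it held for 4.46%, with a median half-width of 1.45. A 2-fold departure of such low genes was thus mostly not detectable at this depth and number of mice. Over all tested genes the log2 interaction had a median of −0.016 and quartiles of −0.23 and 0.12.

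The contrast is the difference of 2 responses to intermittent hypoxia that share no library. In sham-operated mice 42 genes (0.258%) changed under intermittent hypoxia, and in orchiectomized mice 0 (0%) did (edgeR, BH-adjusted p under 0.05). An unadjusted edgeR p under 0.05 was found for similar numbers of the 16276 tested genes, 2079 in Sham and 2142 in ORX mice. In ORX mice the smallest edgeR BH-adjusted p was 0.0870, while limma-voom called 1 gene and DESeq2 174. For Sham mice limma-voom called 41 and DESeq2 360. The difference between these counts is not a test of the difference between the responses, which is the contrast itself. Across the 7913 genes of at least 10 CPM the responses had a Pearson correlation of 0.318, and across all tested genes 0.174, as a description, since genes are not independent. Orchiectomy changed 2178 genes (13.4%) in normoxia and 132 (0.811%) under intermittent hypoxia, with 3 ORX_IH libraries in the second.

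These counts moved with single libraries. The count of 42 became 1 without Sham_Nx 2 or without Sham_IH 1, 2 without Sham_IH 2, 4 without Sham_IH 3, 9 without Sham_IH 5, 14 without Sham_Nx 3, 23 without ORX_Nx 1 and 24 without Sham_IH 4. It became 75 without ORX_Nx 4, 82 without ORX_IH 4 and 177 without ORX_Nx 5. The count of 0 in ORX mice became 1 without Sham_IH 4 and 5 without ORX_IH 5. For orchiectomy in normoxia it was 1178 without Sham_Nx 2, 1027 without Sham_Nx 4 and 1202 without Sham_Nx 5, and under intermittent hypoxia 80 without ORX_IH 3 or ORX_IH 5 and 218 without ORX_Nx 5. The 0 calls of the log2 interaction and of the linear departure stood without each of the 17 libraries in turn.

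**Figure D2:**
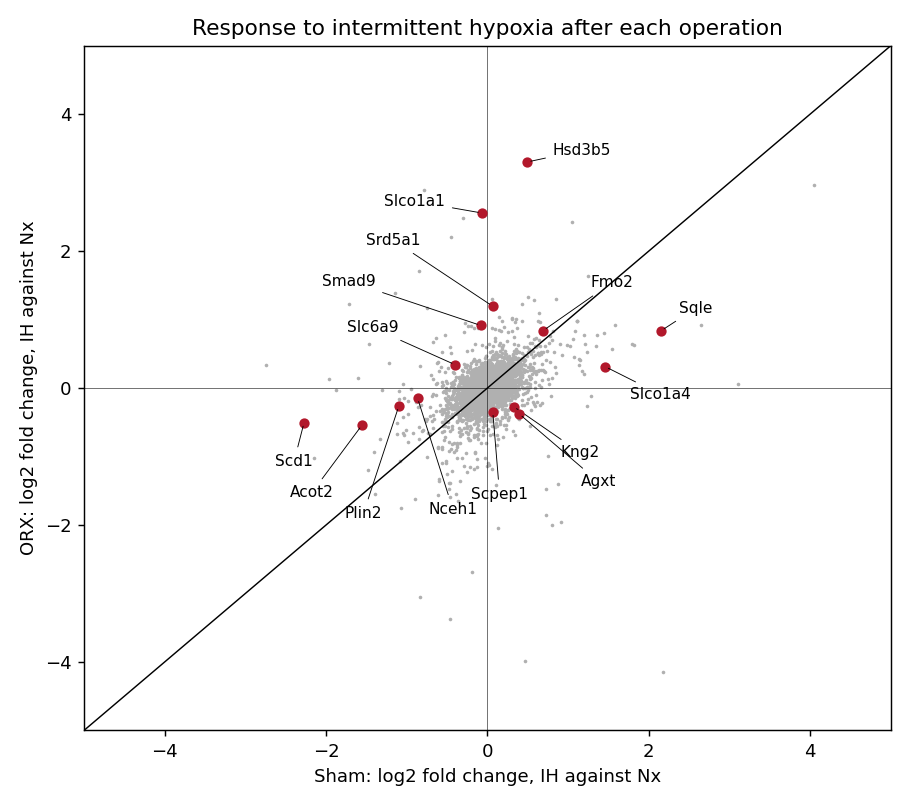
Log2 fold change under intermittent hypoxia in Sham mice (horizontal) and in ORX mice (vertical) for 7913 genes of at least 10 CPM; the line marks equal fold changes, red points are named genes, and 1 gene lies outside the axes. Slc6a9 sits below 0 in Sham and above 0 in ORX, Kng2 and Agxt the other way round, and 0 of the distances from the line passed edgeR's test, while DESeq2 called Slc6a9, Kng2, Srd5a1 and Nceh1.

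The genes named next have the smallest p-values in their direction and a mean of at least 1 CPM. Having been picked by p-value in these same libraries, they gain no further support from groups that do not overlap. The same holds for genes named from the lists further on. None of them passed adjustment in edgeR, while DESeq2 called 4 of them, Slc6a9, Kng2, Srd5a1 and Nceh1, with adjusted p of 0.000259, 0.0204, 0.0390 and 0.0420. Slc6a9, which encodes the glycine transporter GlyT1, stood at 37.3, 43.0, 39.5 and 41.5 CPM in Sham_Nx and at 26.3, 33.0, 29.2, 34.04 and 30.2 CPM in Sham_IH. In ORX_Nx it stood at 20.8, 20.8, 20.1, 22.9 and 19.0 CPM and in ORX_IH at 29.8, 23.7 and 25.1 CPM. Every Sham_IH library lay below every Sham_Nx library, and every ORX_IH library above every ORX_Nx library. The additive level for ORX_IH was 11.0 CPM in amounts and 15.7 CPM in fold changes, against a mean of 26.2 CPM. The log2 interaction was 0.74 ± 0.12 (SE; 95% interval 0.48 to 1.00; edgeR BH-adjusted p = 0.237) and the linear departure 15.3 ± 2.60 CPM (SE; BH-adjusted p = 0.322 from the edgeR fit). Over the alternatives tried, the log2 interaction of Slc6a9 lay between 0.59 and 0.81, with BH-adjusted p from 0.000259 (DESeq2) to 1.00 (edgeR, library numbers 1 to 16 only). Orchiectomy in normoxia lowered Slc6a9, which fell by 0.96 on the log2 scale (edgeR BH-adjusted p = 4.52e-06).

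Slc6a9 was the only tested gene (0.00614%) in which intermittent hypoxia lay below normoxia without overlap in Sham mice and above it without overlap in ORX mice. The reverse crossing was met by 2 genes (0.0123%), Kng2 and Itih2, named here after their values were seen. Over 16276 tested genes and groups this small, such crossings can arise by chance in either direction, and their number was not tested. Kng2, which encodes a kininogen, the precursor of kinins, stood at 162, 166, 138.9 and 165 CPM in Sham_Nx and 171, 197, 184, 226 and 213 CPM in Sham_IH. In ORX_Nx it was at 241, 262, 248, 282 and 229 CPM and in ORX_IH at 217, 204 and 206 CPM. Its log2 interaction was −0.60 ± 0.13 and its linear departure −83.2 ± 17.9 CPM (edgeR BH-adjusted p = 0.834 and 0.756). In ORX_IH, additive amounts of Kng2 would give 292 CPM and additive fold changes 316 CPM, so the observed mean of 209 CPM was lower than either. Means of all 4 groups are given here and for later genes in the order Sham_Nx, Sham_IH, ORX_Nx and ORX_IH. Itih2, a heavy chain of the inter-alpha-trypsin inhibitors, averaged 1046 ± 71.4, 1251 ± 103, 1537 ± 384 and 1237 ± 26.7 CPM (SD), with ORX_Nx 5 at 2219 CPM. Itih2 had a log2 interaction of −0.57 ± 0.20 (edgeR BH-adjusted p = 0.834).

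**Figure D3:**
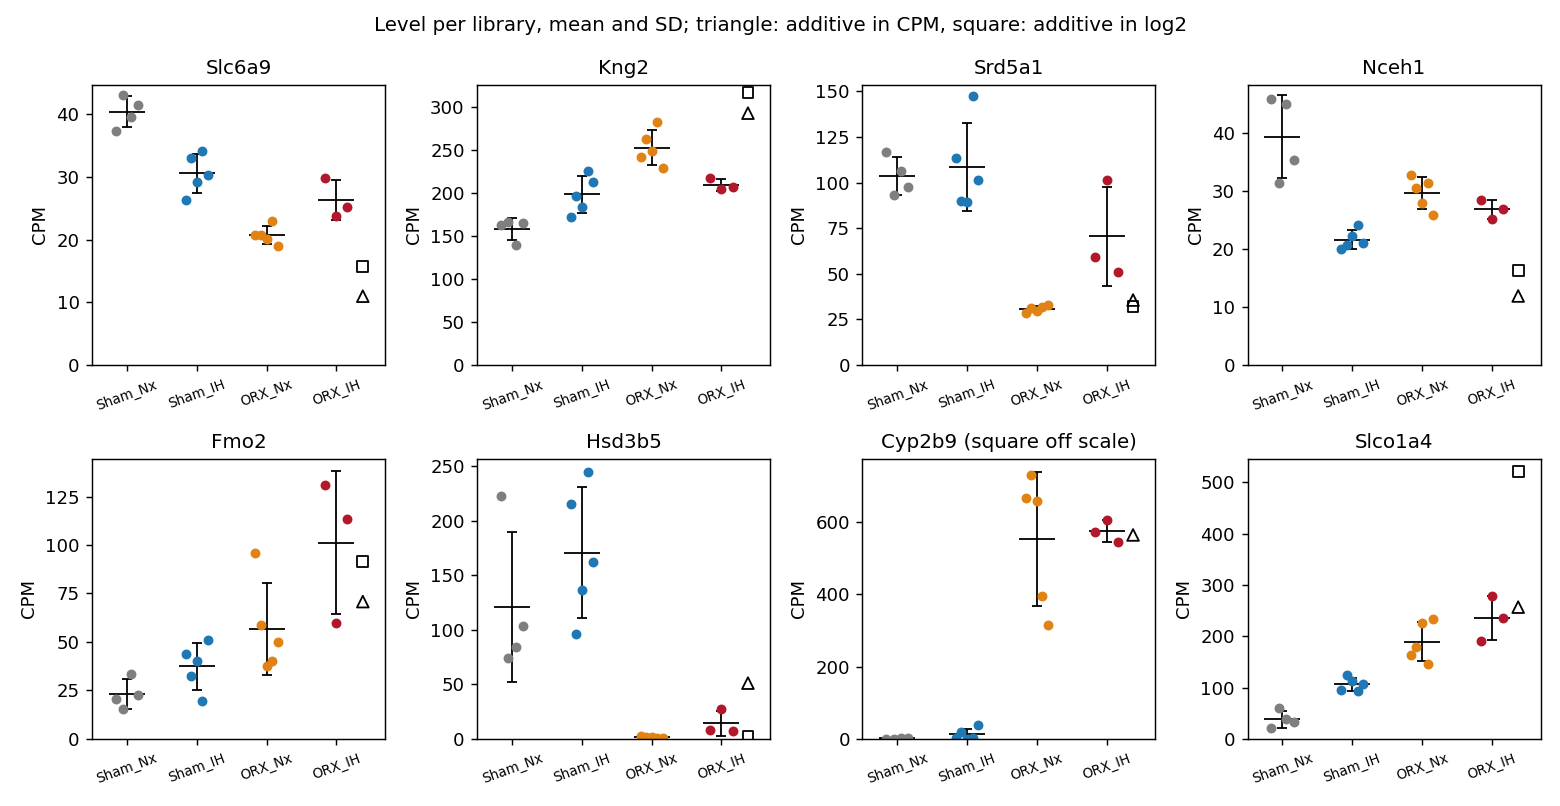
CPM of 8 genes in each library (points) with the mean and SD (bars) of the 4 groups; beside ORX_IH, the triangle is the level additive in CPM and the square the level additive in log2, which for Cyp2b9 is off the axis. The ORX_IH points of Slc6a9 and Nceh1 lie above both marks and those of Kng2 below both, while those of Hsd3b5 lie above the square and below the triangle.

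Among the positive departures, Srd5a1, which makes dihydrotestosterone from testosterone, stood at 28.6, 31.3, 29.7, 31.8 and 32.7 CPM in ORX_Nx and at 59.1, 102 and 51.2 CPM in ORX_IH, without overlap. In Sham mice its levels overlapped, at 93.4 to 117 CPM in normoxia and 89.1 to 148 CPM under intermittent hypoxia. The log2 interaction of Srd5a1 was 1.13 ± 0.25 and the linear departure 35.1 ± 14.6 CPM (edgeR BH-adjusted p = 0.834 and 0.756), and ORX_IH 4, at 102 CPM, was the highest of its 3 libraries. Without ORX_IH 4 the linear departure of Srd5a1 was 19.6 CPM. Nceh1, a neutral cholesterol ester hydrolase, was at 45.8, 31.3, 44.9 and 35.3 CPM in Sham_Nx and 20.0, 20.6, 22.2, 24.1 and 21.0 CPM in Sham_IH, without overlap, and fell by 0.87 on the log2 scale under intermittent hypoxia in Sham mice (edgeR BH-adjusted p = 0.00383). In ORX mice Nceh1 averaged 29.6 ± 2.76 CPM (SD, n = 5) in normoxia and 26.8 ± 1.60 CPM (SD, n = 3) under intermittent hypoxia, and its log2 interaction was 0.72 ± 0.15. Smad9, a transcription factor of bone morphogenetic protein signalling, averaged 11.1 ± 1.86, 10.5 ± 1.73, 6.52 ± 0.830 and 12.3 ± 3.18 CPM (SD). Its ORX_IH libraries lay above its ORX_Nx libraries, and its log2 interaction was 1.00 ± 0.23. Spryd7, Mapre3, a microtubule end-binding protein, and Phospho1, a phosphatase acting on phosphocholine, had log2 interactions of 0.45 ± 0.11, 0.41 ± 0.10 and 1.05 ± 0.29 (SE). For Mapre3 and Phospho1 the fall under intermittent hypoxia in Sham mice passed (edgeR BH-adjusted p = 0.0227 and 0.0303), and the means in ORX mice, 27.1 and 27.2 CPM for Mapre3, were close to each other.

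Among the negative departures, Scpep1, a serine carboxypeptidase of lysosomes, stood at 47.7, 51.8, 50.1, 50.4 and 49.4 CPM in ORX_Nx and 36.5, 38.9 and 42.3 CPM in ORX_IH, without overlap. In Sham mice Scpep1 averaged 31.9 ± 1.96 CPM (SD, n = 4) in normoxia and 33.4 ± 2.204 CPM (SD, n = 5) under intermittent hypoxia. The log2 interaction of Scpep1 was −0.41 ± 0.090, among the most precise of the named genes, and the linear departure −12.2 ± 2.42 CPM (edgeR BH-adjusted p = 0.834 and 0.756). Agxt, the alanine-glyoxylate aminotransferase that removes glyoxylate, averaged 251 ± 15.6, 330.2 ± 22.7, 387 ± 45.5 and 298 ± 74.7 CPM (SD). In Sham mice its libraries did not overlap between exposures, and in ORX mice they did, with ORX_IH 4 lowest at 213 CPM. Agxt had a log2 interaction of −0.77 ± 0.18 and a linear departure of −168 ± 39.5 CPM. Psd, an exchange factor for the small GTPase ARF6, had the widest log2 interaction of these genes, −1.54 ± 0.37, at means between 0.936 and 1.95 CPM. Rpl10-ps3 had a log2 interaction of −0.43 ± 0.10. It is a pseudogene of a ribosomal protein gene, and its reads can be shared with the parent gene and other copies.

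The 4 flavin-containing monooxygenases reported here were all positive on both scales, and none passed. Fmo2, which predominates in lung in many mammals, stood at 20.6, 15.6, 33.6 and 22.4 CPM in Sham_Nx, 43.7, 32.4, 40.1, 19.3 and 51.2 CPM in Sham_IH, 96.1, 58.8, 37.8, 40.02 and 50.2 CPM in ORX_Nx and 131, 59.7 and 113 CPM in ORX_IH. Both exposures overlapped within each operation for Fmo2. The level of Fmo2 in ORX_IH, 101 ± 37.1 CPM (SD, n = 3), lay above the 70.8 CPM of additive amounts and near the 91.5 CPM of additive fold changes. Accordingly the linear departure of Fmo2 was 30.5 ± 21.7 CPM (95% interval −15.3 to 76.2 CPM) and the log2 interaction 0.15 ± 0.47 (95% interval −0.84 to 1.13), with edgeR BH-adjusted p of 0.800 and 0.975. The sign of the log2 interaction of Fmo2 was not stable: it was −0.092 without Sham_Nx 4, −0.019 without Sham_IH 4, −0.070 without ORX_IH 3 and −0.038 without ORX_Nx 4 and 5. The linear departure of Fmo2 was 16.0 CPM without ORX_IH 3 and 51.4 CPM without ORX_IH 4.

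Fmo5, a Baeyer-Villiger type monooxygenase abundant in liver, stood at 386, 382, 348, 443 and 485 CPM in ORX_Nx and 413, 777 and 492 CPM in ORX_IH, and averaged 534 ± 70.6 and 554 ± 43.8 CPM (SD) in Sham_Nx and Sham_IH. The departure was 0.40 ± 0.22 on the log2 scale and 132 ± 81.8 CPM on the linear scale (edgeR BH-adjusted p = 0.835 and 0.774), with ORX_IH 4 at 777 CPM well above the other pair. Without ORX_IH 4 the log2 interaction of Fmo5 was 0.097 and the linear departure 24.7 CPM, and without ORX_IH 3 the latter was 210.2 CPM. Fmo4 averaged 4.98 ± 0.698, 5.63 ± 0.729, 5.89 ± 1.18 and 8.32 ± 0.813 CPM (SD), and every ORX_IH library lay above all others. Fmo4 had a log2 interaction of 0.33 ± 0.22 (95% interval −0.14 to 0.80) and a linear departure of 1.81 ± 1.01 CPM (BH-adjusted p = 0.762 from the edgeR fit), the former 0.21 without ORX_Nx 4. Fmo1 averaged 227 ± 29.8, 245 ± 30.7, 294 ± 67.4 and 338 ± 54.4 CPM (SD), with a log2 interaction of 0.090 ± 0.23 and a linear departure of 25.96 ± 45.3 CPM. Both values of Fmo1 moved with single libraries: the log2 interaction was −0.013 without ORX_IH 3 and 0.21 without ORX_IH 4, and the linear departure 2.19 and 54.4 CPM. Without ORX_Nx 5 the linear departure of Fmo1 was 9.03 CPM, and without ORX_Nx 4 and 5 it was −20.1 CPM. For Fmo1, Fmo4 and Fmo5 the 95% interval of the log2 interaction stayed within −1 and 1.

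Both scales mostly gave the same sign. The 2 departures had opposite signs in 519 genes (3.19%), of which 171 had a mean of at least 10 CPM. Of the 946 genes with an unadjusted p under 0.05 on the log2 scale, 803 also had one on the linear scale, 0 of them with opposite signs, and 240 further genes had one on the linear scale alone. Of the genes with opposite signs only Hsd3b5 and Cyp2b9 had an unadjusted p under 0.05 on either scale. In 158 genes (0.971%), 26 of them of at least 10 CPM, additive amounts would put the ORX_IH level below 0 CPM. The linear departure of such a gene is positive by construction. Phospho1 was one, with an additive level of −7.004 CPM and a mean of 15.8 CPM in ORX_IH.

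**Figure D4:**
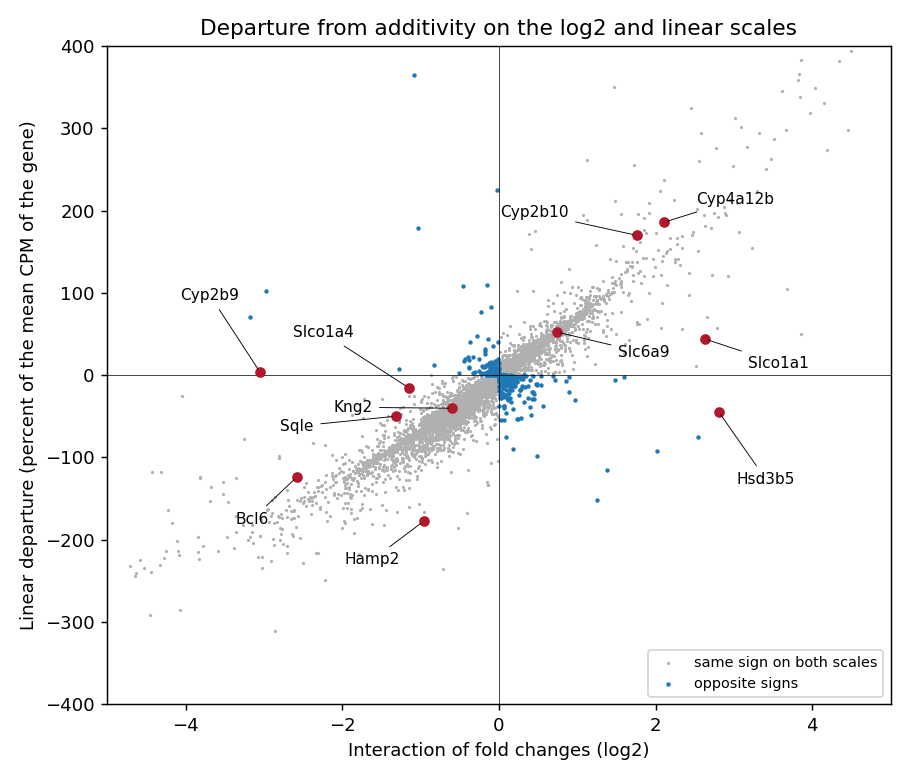
Log2 interaction (horizontal) against the linear departure as a percent of the mean CPM of the gene (vertical) for the tested genes; blue points are the 519 genes whose signs differ, red points are named genes, and 38 genes lie outside the axes. Hsd3b5 lies to the right and below 0, Cyp2b9 to the left and just above 0, and Slc6a9 and Kng2 near the main diagonal cloud.

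Hsd3b5, a male-biased steroid dehydrogenase of the liver, shows how the scales can part. It stood at 2.55, 1.79, 1.64, 0.699 and 0.389 CPM in ORX_Nx and 8.45, 27.6 and 6.79 CPM in ORX_IH, without overlap, and at 74.4 to 223 CPM in Sham_Nx and 95.7 to 245 CPM in Sham_IH. The log2 interaction was 2.81 ± 0.69 (edgeR BH-adjusted p = 0.834). The linear departure was −36.7 ± 44.6 CPM (BH-adjusted p = 0.904 from the edgeR fit): ORX_IH, at a mean of 14.3 CPM, was above the 2.05 CPM of additive fold changes and below the 51.1 CPM of additive amounts. Leaving out single libraries took the linear departure of Hsd3b5 from −70.7 CPM, without Sham_Nx 2, to −18.2 CPM, without Sham_IH 4. Cyp2b9, a female-biased cytochrome P450, was the mirror case: it stood at 0.827, 0.4932, 2.75 and 1.60 CPM in Sham_Nx and 1.86, 18.5, 0.410, 2.97 and 37.2 CPM in Sham_IH, which overlapped. It stood at 665, 729.7, 659, 395 and 315 CPM in ORX_Nx and 572, 605 and 544 CPM in ORX_IH. Additive fold changes would put Cyp2b9 at 4760.1 CPM in ORX_IH and additive amounts at 564 CPM, against a mean of 574 CPM. Cyp2b9 had a log2 interaction of −3.05 ± 1.21 and a linear departure of 9.85 ± 315 CPM, whose sign changed in 8 of 31 alternatives. Without Sham_IH 5 the log2 interaction of Cyp2b9 was −2.03, and over the alternatives tried it lay between −3.60 and −0.32. Reads of Cyp2b9 can be shared with its close relatives.

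The largest linear departures belonged to abundant transcripts, led by Alb and Mup7, which encode albumin and a major urinary protein, and were mostly within their error. The 10 genes with the largest absolute departure held 24.8% of the summed absolute departure over all tested genes, and 2 of the 10 had an unadjusted p under 0.05. Hamp2, a relative of the hepcidin gene, was the converse of Hsd3b5, with a smaller log2 than linear signal. It stood at 221, 275, 207, 150.8 and 105 CPM in ORX_Nx and 21.1, 90.3 and 82.9 CPM in ORX_IH, without overlap, and at 10.2 CPM or less in every sham-operated liver. The linear departure of Hamp2 was −125 ± 37.9 CPM (unadjusted p = 0.00433, BH-adjusted p = 0.756 from the edgeR fit) and its log2 interaction −0.96 ± 0.61 (edgeR BH-adjusted p = 0.841), or −0.53 without ORX_IH 3.

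Sex-biased genes were examined as lists, and edgeR called 0 members of any of the 35 lists on either scale. DESeq2 called Srd5a1, a member of the hormone signalling list. The contrast shares libraries with the orchiectomy effects, so the values are set side by side without a measure of their relation. Over all tested genes, 47.0% were positive on the log2 scale and 46.6% on the linear scale. An unadjusted edgeR p under 0.05 on the log2 scale was found for 5.81% of them. The counts of this and the later lists are to be read beside these shares. Of 29 male-biased genes, 26 had a positive and 3 a negative log2 interaction, with a median of 0.71, against −0.016 over all tested genes, and 8 had an unadjusted p under 0.05, all positive. Their median log2 fold change after orchiectomy was −4.10 in normoxia and −3.30 under intermittent hypoxia, and under intermittent hypoxia it was −0.24 in Sham and 0.60 in ORX mice. On the linear scale 19 of the 29 were positive and 10 negative. Of the 29, 7 had opposite signs.

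Slco1a1, an organic anion transporter of the male liver, stood at 12.0, 9.43, 24.8, 27.8 and 5.77 CPM in ORX_Nx and 87.2, 170.0 and 25.8 CPM in ORX_IH, which overlapped, with ORX_IH 4 highest. In Sham_Nx and Sham_IH it ranged from 323 to 474 and from 256 to 523 CPM. Slco1a1 had a log2 interaction of 2.63 ± 0.65 and a linear departure of 96.2 ± 119 CPM. Ugt2b38, a glucuronosyltransferase, and Cyp4a12b, an arachidonic acid hydroxylase, had log2 interactions of 2.42 ± 0.76 and 2.11 ± 0.85. Additive amounts would put Slco1a1, Ugt2b38 and Cyp4a12b at −1.76, −0.665 and −112 CPM in ORX_IH. Their linear departures are thus positive by construction, also where counted in a list. ORX_IH 4 was also the orchiectomized library of the contrast with the highest summed male-biased level, 7743 CPM against 2671 to 4131 in the other 7. Without ORX_IH 4 the linear departure of Slco1a1 was 58.7 CPM and the log2 interaction of Cyp4a12b 1.37. Without that library the median of the list was 0.25, with 20 of 29 positive, and without ORX_Nx 4 and 5 it was 0.97.

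Of 31 female-biased genes, 21 had a negative and 10 a positive log2 interaction, with a median of −0.32. Their median log2 fold change after orchiectomy was 3.73 in normoxia and 2.45 under intermittent hypoxia. On the linear scale 14 of the 31 were positive and 17 negative. Leaving out single libraries took the median log2 interaction from −0.53, without Sham_Nx 4, to −0.16, without ORX_Nx 2. Atp6v0d2, a subunit of the proton pump, and Ntrk2, a neurotrophin receptor, had log2 interactions of −1.72 ± 0.60 and −2.77 ± 0.86 at means of at most 5.50 CPM. Ntrk2 was highest in ORX_Nx 5, at 6.14 CPM. Its linear departure was −2.03 CPM, or −1.1 CPM without that library. Against the list's direction Cyp2b10, a cytochrome P450 induced by the receptor CAR, stood at 7.87, 9.62, 10.2, 4.19 and 13.2 CPM in ORX_Nx and 12.2, 39.8 and 20.1 CPM in ORX_IH, which overlapped, with a log2 interaction of 1.76 ± 0.80. Of 22 hormone signalling genes 10 were positive and 12 negative, with a median of −0.052. In that list Bcl6, a male-biased repressor that opposes STAT5 at many female-biased liver genes, stood at 9.90, 27.1, 71.3, 54.5 and 9.25 CPM in ORX_Nx and 9.38, 9.70 and 9.65 CPM in ORX_IH. The 3 ORX_IH libraries were nearly level for Bcl6 while the ORX_Nx and Sham libraries spread widely, at 14.8 to 87.4 CPM in Sham_Nx and 35.3 to 109.5 CPM in Sham_IH. Its log2 interaction was −2.58 ± 0.89 (edgeR BH-adjusted p = 0.834), and that of Socs2, a growth hormone induced inhibitor of the same pathway, 1.23 ± 0.67, which was 0.75 without ORX_IH 3.

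**Figure D5:**
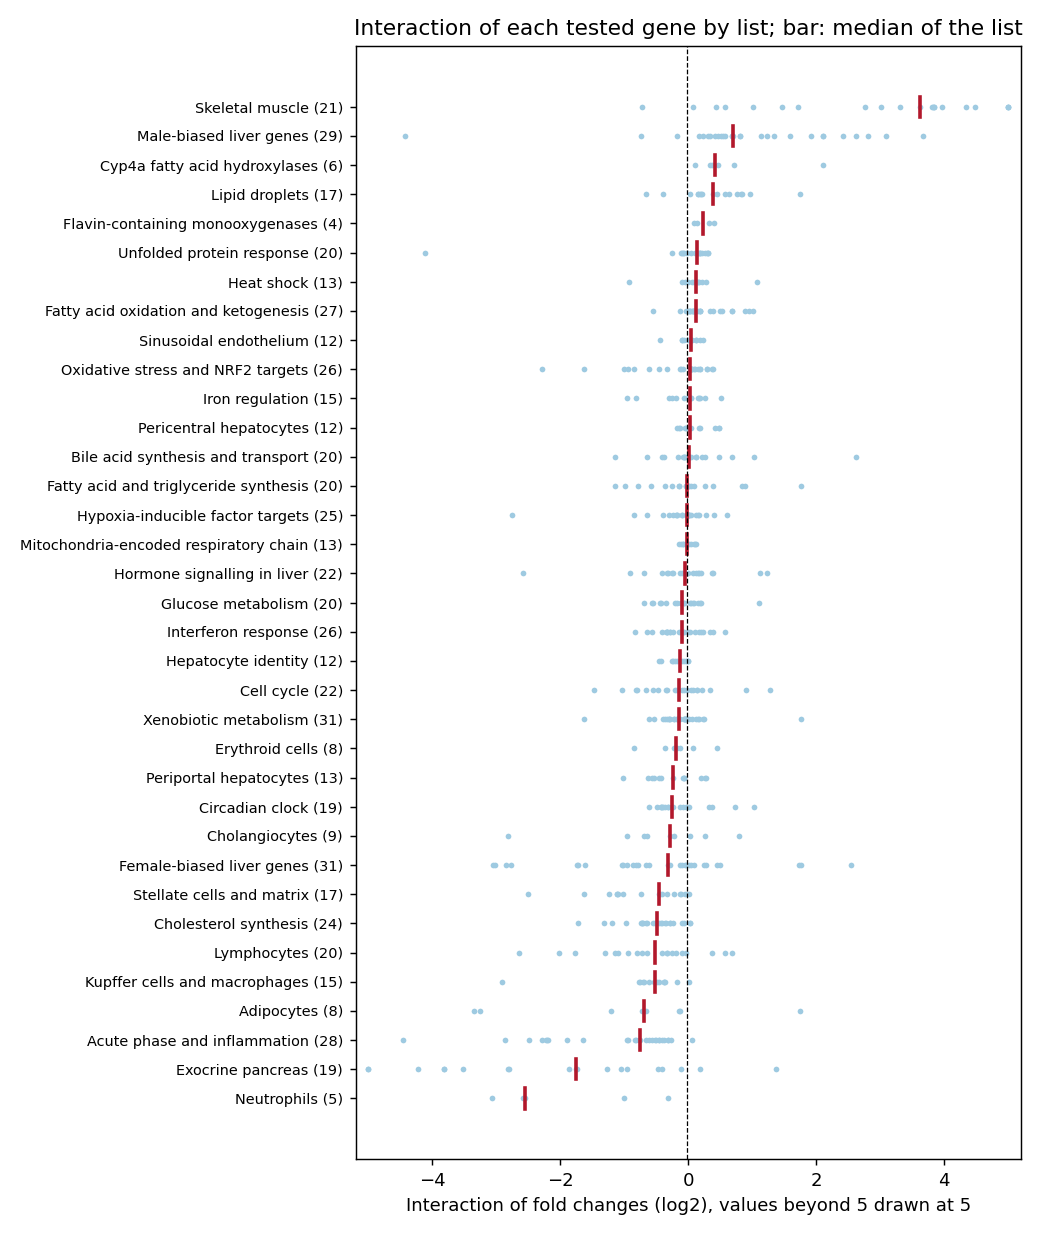
Log2 interaction of each tested gene (points) in 35 gene lists, with the median of the list (red bar), the number tested in brackets and the median of all tested genes (dashed line); values beyond −5 and 5 are drawn at the edge. Male-biased genes lie to the right with a median of 0.71, while cholesterol synthesis, acute phase and immune cell lists lie to the left, and 0 of the genes drawn passed edgeR's test, while DESeq2 called Srd5a1 in the hormone signalling list.

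Genes of lipid storage leaned to positive departures, and those of cholesterol synthesis to negative ones. Of 17 lipid droplet genes, 15 were positive on the log2 scale, with a median of 0.39, and 5 had an unadjusted p under 0.05, all positive. Over all tested genes 47.0% were positive on that scale and 5.81% had such a p. The list's median log2 fold change under intermittent hypoxia was −0.45 in Sham and 0.020 in ORX mice. Plin2, the coat protein of hepatocyte lipid droplets, stood at 897, 545, 1100.4 and 659 CPM in Sham_Nx and 312, 445, 416, 358 and 339 CPM in Sham_IH, without overlap. In ORX mice its libraries overlapped, at 457, 674, 511, 436 and 574 CPM in normoxia and 370.0, 338 and 618 CPM under intermittent hypoxia. Plin2 fell by 1.10 on the log2 scale in Sham mice (edgeR BH-adjusted p = 0.0385), and the log2 interaction was 0.84 ± 0.31 (BH-adjusted p = 0.834), or 0.52 without ORX_IH 5. Its relatives Plin4 and Plin5 had log2 interactions of 0.64 ± 0.24 and 0.77 ± 0.25.

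Fatty acid oxidation and ketogenesis genes were positive in 23 of 27, with a median of 0.12, and 1 had an unadjusted p under 0.05. That median was like those of the heat shock (0.12) and unfolded protein response (0.13) lists. Acot2, a mitochondrial acyl-CoA thioesterase, stood at 42.03, 36.5, 67.6 and 33.99 CPM in Sham_Nx and 13.2, 19.1, 15.4, 15.0 and 13.9 CPM in Sham_IH, without overlap, and at 36.3, 43.1, 36.4, 25.003 and 26.7 CPM in ORX_Nx and 29.5, 11.8 and 27.9 CPM in ORX_IH, which overlapped. It fell by 1.55 on the log2 scale in Sham mice (edgeR BH-adjusted p = 0.0200), with a log2 interaction of 1.01 ± 0.36. The coactivator Ppargc1a had a log2 interaction of −0.55 ± 0.26. In fatty acid and triglyceride synthesis 9 of 20 were positive, with a median of −0.014. Scd1, the stearoyl-CoA desaturase, stood at 4500.2, 3194, 1330.3 and 8350.3 CPM in Sham_Nx and 702, 796, 876, 1004 and 1113 CPM in Sham_IH, without overlap, while ORX_IH ranged from 925 to 5942 and ORX_Nx from 2214 to 5753 CPM. The log2 interaction of Scd1 was 1.77 ± 0.69 and the linear departure 2072 ± 1745 CPM. Without ORX_IH 4, the highest of its group, they were 1.01 and 739 CPM, and the linear departure was 738 CPM without Sham_Nx 5 and 3258 CPM without ORX_IH 3. Acacb, which makes the malonyl-CoA that restrains fatty acid oxidation, and Me1, a source of NADPH, had log2 interactions of 0.88 ± 0.26 and 0.85 ± 0.31, the latter 0.46 without ORX_IH 4.

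Of 24 cholesterol synthesis genes, 22 were negative on the log2 scale and 21 on the linear scale, with a median log2 interaction of −0.49. The median response to intermittent hypoxia was 1.05 in Sham and 0.56 in ORX mice, positive in both. Sqle, the squalene epoxidase, stood at 17.7, 10.2, 28.97 and 11.4 CPM in Sham_Nx and 72.4, 82.1, 73.2, 99.8 and 52.4 CPM in Sham_IH, without overlap, and rose by 2.15 on the log2 scale in Sham mice (edgeR BH-adjusted p = 0.0232). In ORX_Nx it stood at 32.8, 56.0, 59.4, 31.1 and 30.1 CPM and in ORX_IH at 94.5, 98.6 and 31.2 CPM, which overlapped. The additive level of Sqle in ORX_IH was 101 CPM in amounts and 187 CPM in fold changes, against a mean of 74.8 CPM. Sqle had a log2 interaction of −1.32 ± 0.52 and a linear departure of −25.9 ± 20.8 CPM (edgeR BH-adjusted p = 0.834 and 0.824). Msmo1, a sterol demethylation enzyme, had a log2 interaction of −1.19 ± 0.60. Without ORX_Nx 4 and 5 the list's median was −0.78, with 24 of 24 negative, and without Sham_Nx 2 and 3 it was −0.43. Without ORX_IH 5, the lowest of its group for Sqle, it was −0.28, and the linear departure of Sqle was −4.19 CPM.

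Bile acid genes split, with 11 of 20 positive and a median of 0.014. Slco1a4, an organic anion transporter, stood at 21.1, 60.5, 38.9 and 33.4 CPM in Sham_Nx and 95.1, 124, 112, 92.4 and 106.5 CPM in Sham_IH, without overlap, and at 163, 179, 226, 146 and 233 CPM in ORX_Nx and 191, 278 and 236 CPM in ORX_IH, which overlapped. Slco1a4 rose under intermittent hypoxia in Sham mice by 1.46 ± 0.23 (log2; edgeR BH-adjusted p = 0.0200). Its log2 interaction was −1.15 ± 0.33, while its linear departure was −21.5 ± 38.3 CPM, so that in amounts ORX_IH stood near the additive 257 CPM. The linear departure of Slco1a4 was 2.00 CPM without ORX_IH 3 and −42.9 CPM without ORX_IH 4. Nr0b2, the repressor SHP that bile acids induce, had a log2 interaction of 1.03 ± 0.35.

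Acute phase genes, secreted or induced in inflammation, were negative in 27 of 28 on both scales, with a median log2 interaction of −0.76, and 12 had an unadjusted p under 0.05. Over all tested genes 47.0% were positive on the log2 scale and 5.81% had such a p. Itih4, an acute phase inhibitor heavy chain, averaged 1327 ± 134.9, 1964 ± 454, 2474 ± 355 and 2145 ± 403 CPM (SD) and had a log2 interaction of −0.77 ± 0.24, and Serpina3m had −0.51 ± 0.17. The chemokine Cxcl1 stood at 9.87, 8.69, 5.46, 221 and 7.77 CPM in ORX_Nx, where ORX_Nx 4 was far above the rest, and at 2.08, 3.84 and 3.71 CPM in ORX_IH, with a log2 interaction of −4.46 ± 1.53. Without ORX_Nx 4 that of Cxcl1 was −1.77. ORX_Nx 4 and ORX_Nx 5, the libraries highest in this list, enter the contrast with a negative sign. Without both, the median of the list was −0.22, with 21 of 28 negative, and without ORX_Nx 4 alone it was −0.49.

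Markers of immune and stellate cells in the liver leaned the same way with all libraries of the contrast. Of 15 Kupffer cell and macrophage markers 14 were negative, with a median of −0.52, and of 5 tested neutrophil markers all 5, with a median of −2.55. In bulk tissue, fewer cells of a type and less RNA per cell cannot be told apart. Summed Kupffer cell markers stood at 386 to 1572 CPM in ORX_Nx, 337 to 540 CPM in ORX_IH, 288 to 462 CPM in Sham_Nx and 249 to 336 CPM in Sham_IH. Summed neutrophil markers were at 56.4 CPM in ORX_Nx 4 and 13.3 CPM in ORX_Nx 5, against 2.76 to 5.73 CPM in the other used libraries. Without ORX_Nx 4 and 5 the Kupffer cell median was 0.18, with 14 of 15 positive, and the neutrophil median 0.36, so both changed sign. Marco, a scavenger receptor of Kupffer cells, stood at 15.8, 3.86, 2.80, 100.4 and 54.6 CPM in ORX_Nx and 2.52, 2.98 and 4.91 CPM in ORX_IH. Lymphocyte markers were negative in 17 of 20 (median −0.52), and stellate cell and matrix genes in 16 of 17 (median −0.46), among them Tagln, Col1a1 and Col3a1 at −1.11 ± 0.34, −1.62 ± 0.62 and −1.24 ± 0.49. Without ORX_Nx 4 and 5 the log2 interaction of Col1a1 was −1.05, and the medians of both lists were −0.15 and −0.40.

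Skeletal muscle genes gave the largest positive median, 3.62, with 20 of 21 positive. Myl1, a myosin light chain of fast muscle, averaged 2.04 CPM in Sham_Nx and 0.0523 CPM or less in the other groups, and Mylpf 2.02 CPM against at most 0.588 CPM. The muscle list moved with Sham_Nx 2 and Sham_Nx 3. Without that pair the median was −0.49, with 4 of 18 positive, and without Sham_Nx 2 alone 0.80. Exocrine pancreas genes had a median of −1.76, which was 2.61 without Sham_IH 5 and −7.53 without Sham_Nx 5. Several of their defining enzymes were at 0 in most libraries: Prss1 in 11, Pnlip in 12 and Clps in 10 of the 17. Adipocyte markers were negative in 7 of 8 (median −0.69), erythroid markers in 6 of 8 (−0.19), cholangiocyte markers in 6 of 9 (−0.29) and sinusoidal endothelial markers in 5 of 12 (0.043). Hepatocyte identity genes had a median of −0.13, and 11 of 12 were bounded within −1 and 1.

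Genes of oxygen sensing and oxidative stress had medians near that of all genes, and those of detoxification leaned further from it. Of 25 hypoxia-inducible factor targets 10 were positive and 15 negative, with a median of −0.015, and 16 were bounded within −1 and 1. Higd1a, a mitochondrial hypoxia-induced protein, had a log2 interaction of 0.28 ± 0.098, Car9, a carbonic anhydrase at most at a mean of 1.44 CPM, −2.76 ± 1.18, and the repressor Bhlhe40 −0.64 ± 0.44. That of Bhlhe40 was −1.15 without ORX_IH 4 and −0.41 without ORX_IH 5. Car9 was highest in ORX_Nx 5, at 3.55 CPM. The linear departure of Car9 was −1.20 CPM, −0.68 CPM without that library and −0.54 CPM without ORX_Nx 4 and 5. Oxidative stress genes had a median of 0.035 over 26 genes. The metallothionein Mt2 had a log2 interaction of −2.28 (95% interval −4.64 to 0.078), which was −1.24 without ORX_Nx 4 and −0.46 without ORX_Nx 4 and 5, and Txnrd1, a thioredoxin reductase, 0.18 ± 0.11. Of 31 xenobiotic metabolism genes 23 were negative, with a median of −0.15. Cyp3a13 had −0.30 ± 0.18 and Gsta1, a glutathione transferase, −1.62 ± 1.00. Without ORX_Nx 5 that of Gsta1 was −0.70, without Sham_IH 3 −1.07, and without ORX_Nx 4 and 5 that of Cyp3a13 was −0.15. All 6 Cyp4a fatty acid hydroxylases were positive, with a median of 0.42, from 0.11 to 2.11, with Cyp4a31 at 0.71 ± 0.36 and the most abundant, Cyp4a10, at 0.35 ± 0.35. Without Sham_Nx 4 these were 0.37 and 0.071, and that of Cyp4a10 was 0.15 without ORX_IH 5 and 0.59 without ORX_IH 4. Their reads can be shared between near-identical copies.

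The remaining lists had medians between −0.26 and 0.13. Medians were −0.020 for 13 mitochondria-encoded respiratory chain genes, all bounded within −1 and 1, 0.033 for 15 iron genes, −0.090 for 20 glucose metabolism genes and −0.10 for 26 interferon response genes, of which 18 were negative on the log2 and 23 on the linear scale. The interferon-induced Gbp2 had a log2 interaction of −0.84 ± 0.46, which was −1.28 without ORX_IH 5, and Tfrc, the transferrin receptor, 0.51 ± 0.24. For the 20 unfolded protein response genes the median was 0.13, with the disulfide isomerase Pdia4 at 0.30 ± 0.31 and asparagine synthetase, Asns, at −4.11 ± 1.53. Asns averaged 2.76 ± 5.14 CPM (SD, n = 5) in ORX_Nx, where ORX_Nx 5 stood at 11.9 CPM, and its log2 interaction was −1.61 without that library. For Pdia4 the value was 0.079 without Sham_Nx 2, 0.061 without ORX_IH 5 and 0.48 without ORX_IH 3. The median was 0.12 for 13 heat shock genes and −0.13 for 22 cell cycle genes. The 19 circadian clock genes were negative in 14, with a median of −0.26, which was 0.032 without Sham_IH 4, with Clock at 0.37 ± 0.13 and Per2 at −0.41 ± 0.28, or −0.19 without ORX_Nx 1. Periportal hepatocyte markers, of the zone that blood enters, were negative in 10 of 13 with a median of −0.23, among them Aldh1b1, Ctsc and Hal, the histidine ammonia-lyase, at −1.02 ± 0.37, −0.53 ± 0.20 and −0.57 ± 0.21. Without ORX_Nx 5 the value of Aldh1b1 was −0.66. Without ORX_Nx 4 and 5 that of Ctsc was −0.33 and the periportal median 0.023. Pericentral markers had a median of 0.025, with 11 of 12 bounded within −1 and 1.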

How the data were processed

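RNA of 20 mouse livers was sequenced, and 17 libraries entered the contrast. The authors deposited estimated counts per gene. The submitters' processing notes name kallisto 0.46.1, fastp 0.23.2 and build GRCm39; the order of steps and any filters are not given in the sources used here. A second table deposited by the authors holds normalized log2 values, whose scaling is also not given in the sources used here; it served as an alternative only. The deposited counts had 27.5% values that were not whole, and were rounded. Groups and mouse numbers came from the sample titles.

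Of 36106 genes, 16276 passed the filter of edgeR 4.0.16 (filterByExpr, minimum count 10, R 4.3.3). The log2 interaction was tested with edgeR's quasi-likelihood test on a model of group means after TMM scaling, over all 17 libraries. The linear departure was computed from the fitted group means of the same model in CPM, with its standard error by the delta method and a moderated test. P-values were adjusted by the Benjamini-Hochberg method over all tested genes, and intervals are at 95%. The code was tested on simulated data. Alternatives changed the scaling, the filter, the tool (limma 3.58.1, DESeq2 1.42.0), the libraries and the block on mouse number. One alternative, leaving out Sham_Nx 2 and 3 together with ORX_Nx 4 and 5, was chosen after seeing the data.

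Named genes were the Fmo genes, the 5 genes with the smallest p in each direction and scale with a mean of at least 1 CPM, and up to 3 genes with the smallest p in each of 35 lists, from which the text gives a part. Itih2, Alb, Mup7, Prss1, Pnlip and Clps were named after their values were seen. The contrast, members and lists were chosen with earlier results of these data known. Replicate libraries differed by more than counting noise, with a chi-square per degree of freedom of 19.3 or more for each pair. Each library is a separate mouse by its title. EdgeR called no gene, so the planned description of promoter motifs among called genes had none to apply to. Coordinates are not printed, since the reference used here is of another build. Results for some items are not reported here, also in the counts and medians of lists.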

Additional observations from a re-analysis of the deposited data

Results flagged for a closer look

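In 96 sets of library values of one group, from 26 genes and 6 marker or list sums, 10 values stood apart from the rest of their group by Dixon's criterion at 95%, which chance alone gives in about 1 of 20 sets. Itih2 stood at 2219 CPM in ORX_Nx 5, Smad9 at 13.9 CPM in Sham_Nx 2 and Kng2, the lowest of its group, at 138.9 CPM in Sham_Nx 4. Cxcl1 stood at 221 CPM in ORX_Nx 4 and at 5.63 CPM in Sham_IH 4.

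Among the sums, neutrophil markers reached 56.4 CPM in ORX_Nx 4, skeletal muscle genes 57.9 CPM in ORX_Nx 5, and exocrine pancreas genes 647 CPM in Sham_Nx 5 and 1571 CPM in Sham_IH 5. The male-biased genes of ORX_Nx 5 summed to 2671 CPM, the lowest of their group. The libraries left out of the contrast held skeletal muscle sums of 1567 CPM in ORX_IH 1 and 934 CPM in ORX_IH 2.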

How the results depend on the processing

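The tools limma-voom, DESeq2 and limma on the authors' values were run on the log2 scale only, and limma on scaled CPM on the linear scale only. On the scales tried, the count of 0 genes held in every alternative except 2. DESeq2 called 6 genes on the log2 scale, and limma on scaled CPM called 1 on the linear scale. The 6 were Slc6a9, Kng2, Srd5a1 and Nceh1, with DESeq2 adjusted p of 0.000259, 0.0204, 0.0390 and 0.0420, and Muc3 and Gm4294, whose fitted log2 values of −28.2 and −22.5 are not usable as sizes. The 1 was Mup-ps6, a pseudogene at 0.762 CPM of departure (limma adjusted p = 0.0374). Leaving out each library in turn gave 0 calls on both scales. The count of genes bounded within −1 and 1 ranged from 9810 to 10942 over the alternatives. Linear departures with an unadjusted p under 0.05 numbered 606, against 1043, with library numbers 1 to 16 only, which leaves out mouse 5 of each group (library numbers 17 to 20).

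Of 4270 comparisons between a gene value and an alternative, 4248 kept direction and side of the threshold, 18 changed sign and 4 passed the threshold. No value passed in the main fit and the alternatives share most libraries, so the 4248 say little about stability of size. The log2 interaction of Mt2, from −3.11 to −0.10 over the alternatives, and of Marco, from −3.23 to −0.68, counted as kept. The log2 interaction of Fmo1 was −0.013 to 0.21 when each library was left out, lowest without ORX_IH 3, and −0.12 without ORX_Nx 4 and 5, where its linear departure was −20.1 CPM. Fmo2 ranged from −0.092 to 0.42 when each library was left out, negative without Sham_Nx 4, Sham_IH 4 (−0.019) or ORX_IH 3 (−0.070), and was −0.038 without ORX_Nx 4 and 5. The linear departure of Cyp2b9 was −15.7 CPM with the replicate block, −47.2 to 54.1 when each library was left out, negative without ORX_Nx 4, ORX_Nx 5 or ORX_IH 4, −25.4 with ORX_IH 1 and 2, −120 without ORX_Nx 4 and 5, −27.3 with library numbers 1 to 16 and −119 without Sham_Nx 2 and 3 and ORX_Nx 4 and 5. That of Mt2 was 0.874 CPM without ORX_Nx 4 and 5 and 3.95 CPM without Sham_Nx 2 and 3 as well, and that of Slco1a4 ranged from −42.9 to 2.00 CPM when each library was left out, positive without ORX_IH 3. The cause was not tested for any of these.

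The call counts of the single responses moved more. Intermittent hypoxia in Sham mice gave 297 genes without ORX_Nx 4 and 5, 2 without Sham_Nx 2 and 3, 3 without all 4 of these, 0 without the 3 libraries highest in pancreas genes, 81 with a mean of at least 1 CPM, and 70 with ORX_IH 1 and 2 and a muscle covariate. In ORX mice it gave 2 without ORX_Nx 4 and 5, 2 without a count filter and 12 with ORX_IH 1 and 2. Orchiectomy in normoxia gave 422 without Sham_Nx 2 and 3, 557 without these and ORX_Nx 4 and 5, 777 without the 3 pancreas-high libraries and 1035 with library numbers 1 to 16. Orchiectomy under intermittent hypoxia gave 302 without ORX_Nx 4 and 5, 242 without Sham_Nx 2 and 3 as well, 86 without the 3 pancreas-high libraries, 281 without scaling factors, 465 with ORX_IH 1 and 2 and 224 with them and the covariate.

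The mouse numbers were not taken as pairing the libraries of the contrast over its 4 groups: of 22 same-number pairs of libraries 8 had a correlation of deviations over 0.1 (from −0.25 to 0.83), and 8 of 17 libraries correlated best with their own number. Between ORX_Nx and ORX_IH all 3 pairs were over 0.1 (0.34, 0.13 and 0.32), and between Sham_Nx and Sham_IH 2 of 4 were. With the replicate block 0 genes were called on both scales, the smallest edgeR adjusted p was 0.776 and 0.730, and for intermittent hypoxia 19 genes passed in Sham and 0 in ORX mice.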
